A study of Mus musculus with 8 samples.

Results

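ATF4 amino acid response genes were followed in cultured mouse keratinocytes that lack the type I keratins. The list of 42 genes was chosen by function, but with earlier results of these data known. Its genes fall in 4 groups: Atf4 and its stress targets (14 genes), enzymes of amino acid synthesis (11), amino acid transporters (8) and tRNA synthetases (9). A probe named 41 of them, all except Pycr1, and 37 entered the test, out of 16593 genes with a probe and 9881 genes tested. Pck2, Slc7a1, Slc1a5 and Cars were not tested, because none of their probes lay above the background limit, an intensity of 6.30, on 3 or more of the 8 arrays. The KO cells were keratinocytes of the type I keratin KO genotype, and the WT cells were wild-type keratinocytes. Both were of the C57Bl6 strain, came from the skin of embryos at E18.5, late in gestation, and were grown to confluency in a medium described only as specific to keratinocytes. No transgene, Cre driver, clone or further treatment is named for either genotype, so the 2 groups share everything the labels give apart from the keratin genes.

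Each genotype had arrays numbered 1, 2, 3 and 1.1. KO array 1.1, numbered as a repeat of KO 1, lay close to KO 3 (SD of log2 differences 0.213) and far from KO 1 (SD 0.640). The Y-linked gene Eif2s3y read 1022 on it, 1065 on KO 3 and -2.27 on KO 1. By these distances it was averaged with KO 3 and WT 1.1 with WT 1 (SD 0.205), which left 3 replicates per genotype, called KO 1, 2 and 3 and WT 1, 2 and 3 below. The genotype labels held on every array: Krt14, a type I keratin, read -2.90 to 9.28 in KO cells and 17836 to 19131 in WT cells. The labels do not state whether replicates came from separate embryos or cultures, and the p-values therefore reflect the spread among these samples alone. That spread was not technical alone, because Eif2s3y was detected in 2 of 3 KO replicates, with 1248 in KO 2, and in 1 of 3 WT replicates, with 1186 in WT 2 and -4.02 to -0.18 on the other WT arrays. The genotypes were thus unbalanced for this gene, and with its detection as a term in the fit, an alternative chosen after the data were seen, the median difference over the members described below was -0.48 and 0 members were called by limma. Levels are the deposited intensities on a linear scale, and differences are KO minus WT on the log2(intensity + 16) scale with their SE, which understates the difference of dim genes. A gene was called at a Benjamini-Hochberg adjusted p under 0.05 over all genes tested, from limma, a linear model that shares its estimate of the spread between genes. The call rule took 41 of 9881 genes as lower in KO cells, or 0.415%, and 29 as higher, or 0.293%.

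ATF4 is a transcription factor whose protein is made mainly when the initiation factor eIF2 is phosphorylated, because upstream reading frames in its mRNA otherwise keep ribosomes from its coding sequence. The eIF2 kinases respond to different stresses: GCN2 (Eif2ak4) to uncharged tRNA, PERK (Eif2ak3) to misfolded protein in the endoplasmic reticulum, PKR (Eif2ak2) to double-stranded RNA and HRI (Eif2ak1) to lack of haem. ATF4 pairs with C/EBP proteins on composite DNA elements and raises genes that make, import and charge amino acids, together with stress genes such as Chac1, Trib3 and Ddit3. Arrays measure RNA only, so neither ATF4 protein nor eIF2 phosphorylation was measured.

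The core of the C/EBP-ATF composite element was searched in RefSeq promoter windows on mouse assembly GRCm38.p6, from 250 bases before to 50 bases after each gene's start. Read on the gene's strand, a sense match is TGATGNAA and an antisense match is TTNCATCA. Windows were found for 35 of the 42 members, and 14 of these genes held a match (40.0%), against 1219 of 27025 genes with a window (4.51%). A match is a description of letters, not of binding. By group it was present in 5 of 13 stress genes, 3 of 10 synthesis genes, 2 of 6 transporters and 4 of 6 tRNA synthetases. Cars, Cth, Eif4ebp1, Nars, Slc1a5, Slc7a5 and Wars had no window. Asns, Chac1, Nupr1 and Slc7a11 are shown with the 250 bases before the start, each read 5′ to 3′ on the gene's strand with the match in capitals, because they stand at the ends of the range of differences described below or are the best known members of their groups.
Chac1 (chr2:119350992-119351241, plus strand): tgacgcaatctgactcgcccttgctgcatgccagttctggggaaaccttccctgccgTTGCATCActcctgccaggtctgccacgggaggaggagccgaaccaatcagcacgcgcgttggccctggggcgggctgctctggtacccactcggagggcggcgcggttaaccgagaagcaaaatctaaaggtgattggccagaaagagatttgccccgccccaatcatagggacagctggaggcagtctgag
Nupr1 (chr7:126625471-126625720, minus strand): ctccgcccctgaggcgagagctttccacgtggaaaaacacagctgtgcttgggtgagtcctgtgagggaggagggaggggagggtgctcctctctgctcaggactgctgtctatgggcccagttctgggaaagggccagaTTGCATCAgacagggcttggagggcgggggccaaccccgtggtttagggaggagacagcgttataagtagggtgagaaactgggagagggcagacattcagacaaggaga
Asns (chr6:7693210-7693459, minus strand): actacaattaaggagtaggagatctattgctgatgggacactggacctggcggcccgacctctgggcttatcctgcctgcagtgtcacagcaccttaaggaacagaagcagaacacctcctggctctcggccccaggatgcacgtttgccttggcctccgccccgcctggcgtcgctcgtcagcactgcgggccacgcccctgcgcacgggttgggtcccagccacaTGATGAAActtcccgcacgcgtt
Slc7a11 (chr3:50443614-50443863, minus strand): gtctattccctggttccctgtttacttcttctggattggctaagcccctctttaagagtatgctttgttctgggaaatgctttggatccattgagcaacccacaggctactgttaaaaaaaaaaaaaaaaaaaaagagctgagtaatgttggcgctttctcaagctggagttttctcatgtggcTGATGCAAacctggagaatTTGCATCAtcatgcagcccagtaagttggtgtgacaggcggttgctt

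The 30 bases around the match are shown for Trib3, Vldlr and Atf3 of the stress genes, Tars, Gars and Yars of the tRNA synthetases, and the transporter gene Slc1a4, so that the core can be compared between members. Positions are counted from the RefSeq start to the first base of the match.
Trib3 (chr2:152344028-152344057, minus strand): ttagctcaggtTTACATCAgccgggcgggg
Vldlr (chr19:27216809-27216838, plus strand): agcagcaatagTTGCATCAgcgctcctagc
Atf3 (chr1:191183425-191183454, minus strand): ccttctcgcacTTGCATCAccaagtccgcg
Slc1a4 (chr11:20332699-20332728, minus strand): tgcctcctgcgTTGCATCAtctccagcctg
Tars (chr15:11399655-11399684, minus strand): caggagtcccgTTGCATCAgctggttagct
Gars (chr6:55037960-55037989, plus strand): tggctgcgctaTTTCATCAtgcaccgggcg
Yars (chr4:129189895-129189924, plus strand): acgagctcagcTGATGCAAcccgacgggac
On the strand that reads TGATGNAA, the core was TGATGAAA in Asns and Gars, TGATGTAA in Trib3, and TGATGCAA in the other matches shown. In Slc7a11 a sense match at -66 and an antisense match at -47 lie close together. Pycr1 and Pck2, which were not tested, also hold a match, each at -103. The distance from the start differed widely among members, and went from -200 in Vldlr and -193 in Chac1, through -110 in both Nupr1 and Atf3, to -23 in Asns and 15 in Trib3.

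Across the tested members, which were chosen with earlier results of these data known, levels leaned one way. The counts below therefore describe the list and are no independent test of it. Of 37, 33 were lower in KO cells than in WT cells and 4 were higher (Slc7a11, Ppp1r15a, Cebpg and Wars), so 89.2% were lower, against 47.5% of all genes tested. Of the higher ones, Slc7a11 kept its sign under every alternative processing run here and the other 3 did not, while 29 of the 33 lower ones kept theirs. The median difference over the members was -0.51, against 0.02 over all genes. In 19 members, or 51.4%, every KO replicate lay below every WT replicate, against 10.9% of all genes, and in 0 members did every KO replicate lie above every WT replicate, against 11.6%. Without Psph and Cbs, which were not above the limit on every array, the KO replicates lay below in 18 of 35 members. That is 51.4%, against 11.5% of all genes above the limit on every array. No member was called in either direction by limma (0 of 37, against 0.708% of all genes). At an unadjusted p under 0.05 there were 21 lower members, against 8.68% of all genes, and 0 higher members, against 8.45%. The array numbering bears on these counts: with KO 1.1 averaged with KO 1 as labelled, 16 members had no overlap (13% of all genes), and without both 1.1 arrays 16 did (10.7%). These counts are of lower members. Under the labelled pairing every KO replicate of Slc7a11 lay above every WT replicate. In cultures measured in bulk, fewer cells of a type and less RNA per cell cannot be told apart.

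**Figure D1:**
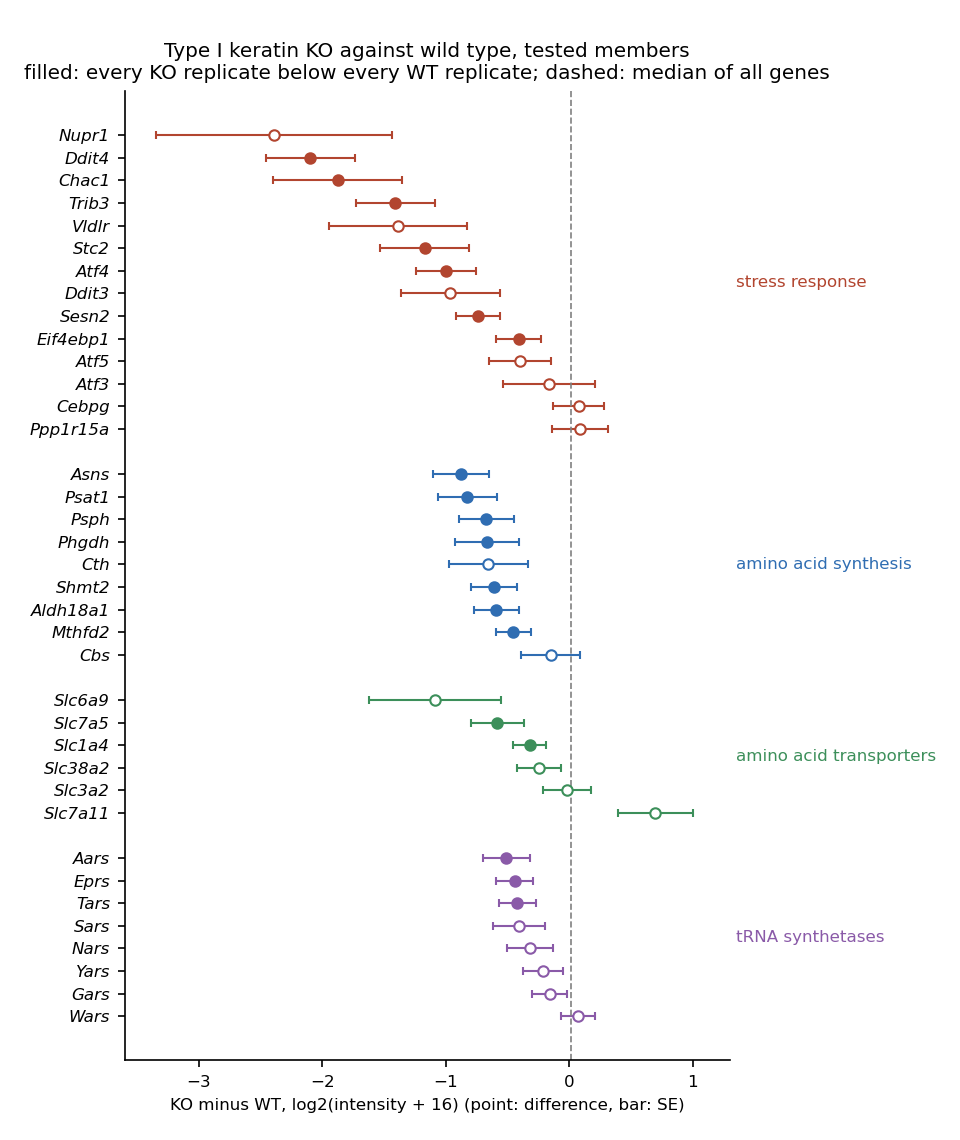
Difference between KO and WT cells for the 37 tested members on the log2(intensity + 16) scale, by group, with the SE as bars, filled points where every KO replicate lay below every WT replicate, and a dashed line at the median of all genes (0.02). The points run from -2.39 (Nupr1) to 0.70 (Slc7a11), and 33 of 37 lie below 0.

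Atf4 itself read 123, 154 and 140 in KO 1, 2 and 3, against 309, 395 and 204 in WT 1, 2 and 3. Every KO replicate was below every WT replicate, and the KO values lay within a narrow band while WT 3 was the lowest of its group. The difference was -1.00 ± 0.24 (SE), with a 95% interval of -1.56 to -0.43 and an adjusted p of 0.108 by limma. A permutation test of these 6 replicates, exact and two-sided, gave p = 0.1, the smallest value it can give, and the same held for Asns, Chac1, Trib3 and Sesn2. Any gene whose replicates do not overlap gives this value, so the test adds nothing to the separation of the replicates. Among all genes tested Atf4 stood at rank 354 by p.

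The stress genes had the widest range of the 4 groups, from -2.39 to 0.09, with a median of -0.98. Of 14 tested genes, 12 were lower in KO cells, 7 of them with no overlap of replicates (50%, against 10.9% of all genes), and 0 were called. Ddit4, which encodes an inhibitor of mTORC1 signalling also known as REDD1, had the smallest p of the members. It read 77.2, 57.3 and 97.7 in KO cells, against 640, 365 and 227 in WT cells. The lowest WT value was far above the highest KO value, and WT 3 was again the lowest of its group. The difference was -2.10 ± 0.36 with an adjusted p of 0.0555 by limma.

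Chac1 encodes an enzyme that breaks down glutathione. It read 516, 575 and 1561 in KO cells, against 3048, 4933 and 1602 in WT cells. KO 3 stood apart from the other KO replicates and came close to WT 3, so the separation of the groups rests on a small gap at that end. The difference was -1.88 ± 0.52 (adjusted p = 0.134, limma). Trib3, a pseudokinase that ATF4 induces and that in turn restrains ATF4, was dim in KO cells at 8.63, 15.5 and 22.4, against 86.7, 91.7 and 34.5 in WT cells. Its difference was -1.41 ± 0.32 (adjusted p = 0.0984, limma), and WT 3 lay well below the other WT replicates.

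Sesn2 encodes a leucine sensor that restrains mTORC1. It read 99.3, 109 and 112 in KO cells, against 166, 241 and 168 in WT cells. The KO replicates were close to each other and all below the WT replicates, with a difference of -0.74 ± 0.18 (adjusted p = 0.108, limma). Stc2, which encodes the secreted glycoprotein stanniocalcin 2, read 47.2, 61.6 and 151 in KO cells, against 234, 207 and 152 in WT cells. KO 3 and WT 3 were nearly equal here, and the difference was -1.17 ± 0.36 (adjusted p = 0.163, limma). On single arrays KO array 3, at 156, was above WT 3.

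**Figure D2:**
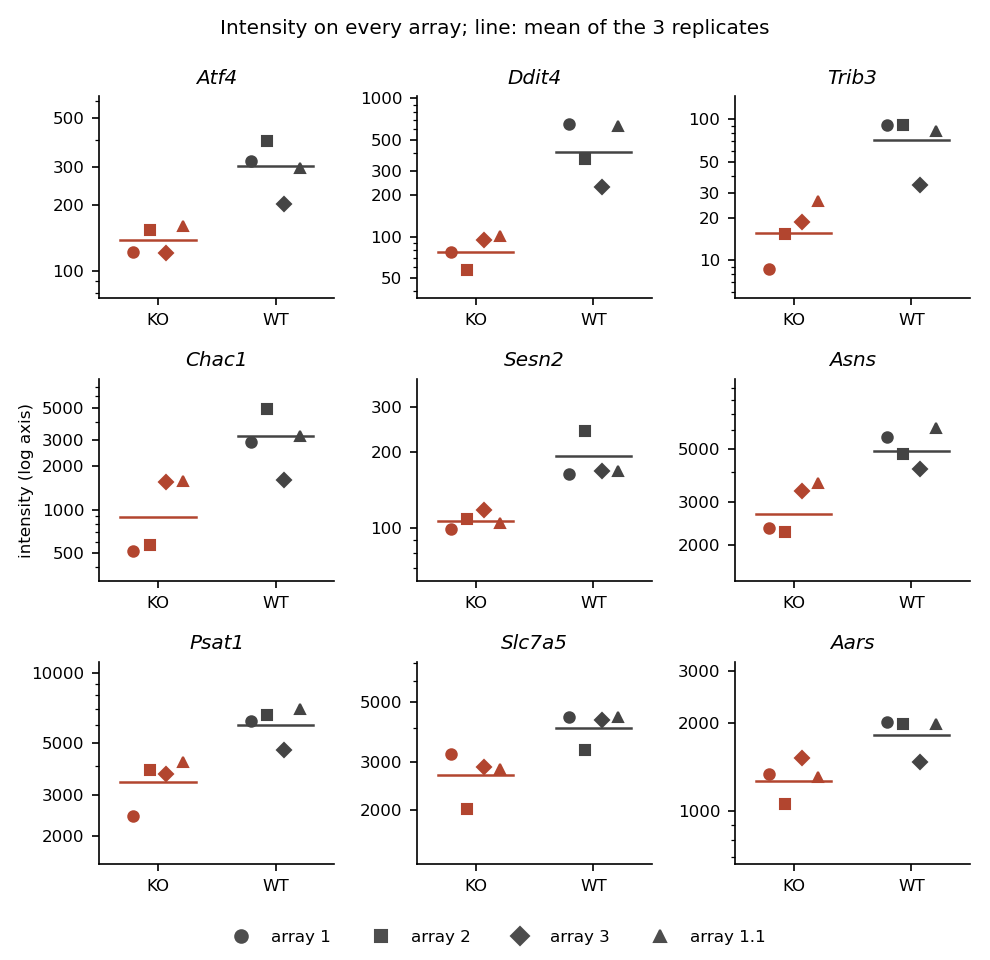
Intensity on every array (log axis) for 9 members, KO arrays left and WT arrays right, with a line at the mean of the 3 replicates and symbols for the array number. KO 3 and KO 1.1 lie together at the top of the KO arrays in Chac1 and Asns, and WT 3 is the lowest WT array in Atf4, Ddit4, Trib3, Chac1, Asns, Psat1 and Aars.

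In 3 further stress genes KO 3 or WT 3 crossed to the other group's side on the tested probe. Nupr1, which encodes a small stress-induced chromatin protein, read 30.6, 30.5 and 341 in KO cells, against 848, 829 and 135.7 in WT cells. Replicates 1 and 2 of the genotypes differed strongly while KO 3 was above WT 3, and the difference of -2.39 ± 0.96 had an adjusted p of 0.261 by limma. Vldlr, a lipoprotein receptor gene, read 102, 144 and 504 in KO cells, against 732, 654 and 332 in WT cells. It showed the same crossing, at -1.39 ± 0.56 (adjusted p = 0.264, limma). Ddit3 encodes CHOP, a factor linked to cell death in prolonged stress, and read 84.9, 53.1 and 80.8 in KO cells, against 234, 214 and 71.1 in WT cells. On this probe WT 3 alone lay among the KO values, and the difference was -0.96 ± 0.40 (adjusted p = 0.280, limma). The other Ddit3 probe above the limit gave -1.34. Its arrays did not overlap, at 34.0 to 69.6 in KO cells and 72.7 to 261 in WT cells.

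The remaining stress genes differed by less. Eif4ebp1, which encodes a repressor of cap-dependent translation, read 1192, 1541 and 1689 in KO cells, against 2172, 1956 and 1717 in WT cells, without overlap and at -0.41 ± 0.18 (adjusted p = 0.313, limma). Atf5, a close relative of Atf4, was at -0.40 ± 0.25. Atf3, which encodes a stress-induced factor of the same family, was at -0.16 ± 0.38. Ppp1r15a (GADD34), whose product directs the removal of phosphate from eIF2, was at 0.09 ± 0.22, and Cebpg, a C/EBP partner of ATF4, at 0.08 ± 0.20. For these last genes the 95% intervals were -1.04 to 0.72 for Atf3, -0.44 to 0.62 for Ppp1r15a and -0.40 to 0.56 for Cebpg, so differences of moderate size in either direction were within the error.

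Enzymes of amino acid synthesis were lower in KO cells in 9 of 9 tested genes, and 7 had no overlap of replicates (77.8%, against 10.9% of all genes). Their median was -0.65, and 0 were called. Psph and Cbs were not above the limit on every array, and Psph passed the filter through the WT arrays, where it was high. Without these, 7 of 7 genes were lower and 6 had no overlap (85.7%, against 11.5% of all genes above the limit on every array), with a median of -0.65. Asns, asparagine synthetase and a standard reporter of this response, read 2338, 2259 and 3486 in KO cells, against 5861, 4757 and 4117 in WT cells. KO 3 was the highest KO and WT 3 the lowest WT replicate, still without overlap, and the difference was -0.88 ± 0.22 (adjusted p = 0.115, limma). The gene has 3 probes above the limit, and the differences were -0.88, -1.30 and -0.78, all in one direction.

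Serine is made from a glycolytic intermediate by Phgdh, Psat1 and Psph in turn, and all 3 genes were lower in every KO replicate than in any WT replicate. Phgdh read 79.8, 120 and 183 in KO cells, against 196, 206 and 208 in WT cells, a difference of -0.67 ± 0.26 (adjusted p = 0.251, limma). Psat1 was much brighter, at 2424, 3851 and 3904 in KO cells, against 6585, 6616 and 4671 in WT cells, with a difference of -0.82 ± 0.24 (adjusted p = 0.148, limma). The Phgdh values were tight in WT cells and spread in KO cells, whereas for Psat1 the lowest replicate of each genotype stood apart. Psph was near background, at -0.155, 2.88 and 7.73 in KO cells, against 21.1, 15.6 and 8.36 in WT cells, and was above the limit on 1 of 4 KO arrays and 4 of 4 WT arrays. On single arrays Psph overlapped, with KO array 3 at 10.4 and WT 3 at 8.36. Its difference of -0.67 ± 0.22 (adjusted p = 0.187, limma) is understated by the offset for so dim a gene.

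Shmt2 and Mthfd2 act in mitochondria on the one-carbon units that serine gives off. Shmt2 read 225, 217 and 177 in KO cells, against 400, 290 and 287 in WT cells (-0.61 ± 0.18, adjusted p = 0.154, limma). Mthfd2 read 181, 166 and 188 in KO cells, against 271, 254 and 226 in WT cells (-0.45 ± 0.14, adjusted p = 0.170, limma). Neither gene overlapped between genotypes, and Shmt2 had its lowest KO value in KO 3. Aldh18a1, which starts proline synthesis from glutamate, read 427, 479 and 619 in KO cells, against 858, 746 and 700 in WT cells (-0.59 ± 0.18, adjusted p = 0.160, limma). The 2 enzymes that turn homocysteine into cysteine overlapped between genotypes: Cth was at -0.65 ± 0.32 and Cbs, which was above the limit on 3 of 4 KO arrays, at -0.15 ± 0.24.

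Of the amino acid transporters, 5 of 6 tested genes were lower in KO cells, with a median of -0.28, and 2 had no overlap (33.3%, against 10.9% of all genes). Slc7a5 (LAT1), the carrier of leucine and other large neutral amino acids, read 3217, 2014 and 2856 in KO cells, against 4399, 3312 and 4275 in WT cells. The highest KO value was just under the lowest WT value, and the difference was -0.58 ± 0.22 (adjusted p = 0.239, limma). Slc3a2, the heavy chain that LAT1 and xCT need to reach the membrane, read 202, 157 and 130 in KO cells, against 184, 170 and 138 in WT cells. It was at -0.02 ± 0.20, with an interval of -0.48 to 0.44, which covers differences of moderate size in both directions. Slc1a4, a carrier of alanine, serine and cysteine, read 145, 166 and 159 in KO cells, against 200, 204 and 193 in WT cells. This small difference of -0.32 ± 0.13 (adjusted p = 0.283, limma) came with tight replicates in both genotypes.

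Slc7a11 stood at the other end of the range. It encodes xCT, the cystine and glutamate exchanger that supplies cysteine for glutathione, and besides ATF4 it is a known target of NRF2. It read 189, 284 and 471 in KO cells, against 189, 189 and 150 in WT cells. KO 1 was level with WT 1 and WT 2, and KO 3 was the highest of all 6 replicates. The difference was 0.70 ± 0.31, with an interval of -0.02 to 1.41 and an adjusted p of 0.299 by limma, and it was the highest of the 37 members. Without KO 3 the difference was 0.37. With KO array 1.1, at 492, averaged with KO 1 as labelled, the difference was 0.90 ± 0.20 (adjusted p = 0.0642, limma). KO 1 was then no longer level with WT 1 and WT 2, so these values depend on the pairing of arrays. Slc6a9, the glycine carrier GLYT1, read 247, 279 and 858 in KO cells, against 1307, 1008 and 464 in WT cells, and crossed in replicate 3 as Nupr1 did (-1.09 ± 0.54, adjusted p = 0.354, limma). Slc38a2 (SNAT2), a neutral amino acid carrier, was at -0.25 ± 0.18 on its brightest probe, and its other probes above the limit gave -0.05 and 0.32, so its direction depended on the probe.

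The tRNA synthetases had the narrowest range of the 4 groups, from -0.51 to 0.07. Of 8 tested genes, 7 were lower in KO cells, 3 had no overlap (37.5%, against 10.9% of all genes), and the median was -0.36. Aars, alanyl-tRNA synthetase, read 1343, 1058 and 1411 in KO cells, against 1995, 1986 and 1475 in WT cells (-0.51 ± 0.19, adjusted p = 0.237, limma). Eprs, which charges both glutamate and proline tRNAs, read 320, 365 and 401 in KO cells, against 529, 461 and 498 in WT cells (-0.44 ± 0.15, adjusted p = 0.200, limma). Tars, for threonine, read 249, 226 and 235 in KO cells, against 354, 342 and 275 in WT cells (-0.42 ± 0.15, adjusted p = 0.231, limma). On the tested probes the KO replicates of each of these genes stayed below the lowest WT replicate, by a narrow gap in Aars. That gap rests on averaging KO array 3, at 1521 and so above WT 3, with KO array 1.1, at 1310. The other Eprs probe above the limit gave -0.68, with KO array 3, at 102, above WT array 1.1, at 93.6. The differences were -0.41 for Sars, -0.32 for Nars, -0.21 for Yars, -0.16 for Gars and 0.07 for Wars, all with overlapping replicates on the tested probe. The other Sars probe above the limit gave -0.63, with KO arrays at 56.9 to 93.9 and WT arrays at 91.1 to 140.

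Averaged over the members, the replicates numbered 3 lay closest to each other across the genotypes. Over all probes above the limit this did not hold. The SD of log2 differences from WT 3 was 0.658 for KO array 3 and 0.561 for KO 1. KO 3 was the highest KO replicate in 23 of 37 members, or 62.2%, against 31.1% of all genes tested. WT 3 was the lowest WT replicate in 28 members, or 75.7%, against 36.7% of all genes. Both held in 18 members (48.6%, against 16.6% of all genes), and KO 3 was still below WT 3 in 25 (67.6%, against 52.5%). Averaged over the members, the deviation from the gene's own mean was -0.48, -0.40 and -0.06 in KO 1, 2 and 3, against 0.51, 0.44 and 0.00 in WT 1, 2 and 3. In this average, replicates 1 and 2 were thus far apart between genotypes and replicates 3 were close. For the synthesis enzymes KO 3 was below WT 3 in 9 of 9 genes, and for the tRNA synthetases in 4 of 8. Without KO 3, 26 members had no overlap (18.9% of all genes). Limma then called 5 lower, namely Ddit4, Chac1, Vldlr, Stc2 and Asns, among 264 genes called in all (2.67% of all genes). Without WT 3 it called Ddit4 and Trib3, among 78 genes (0.789% of all genes).

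**Figure D3:**
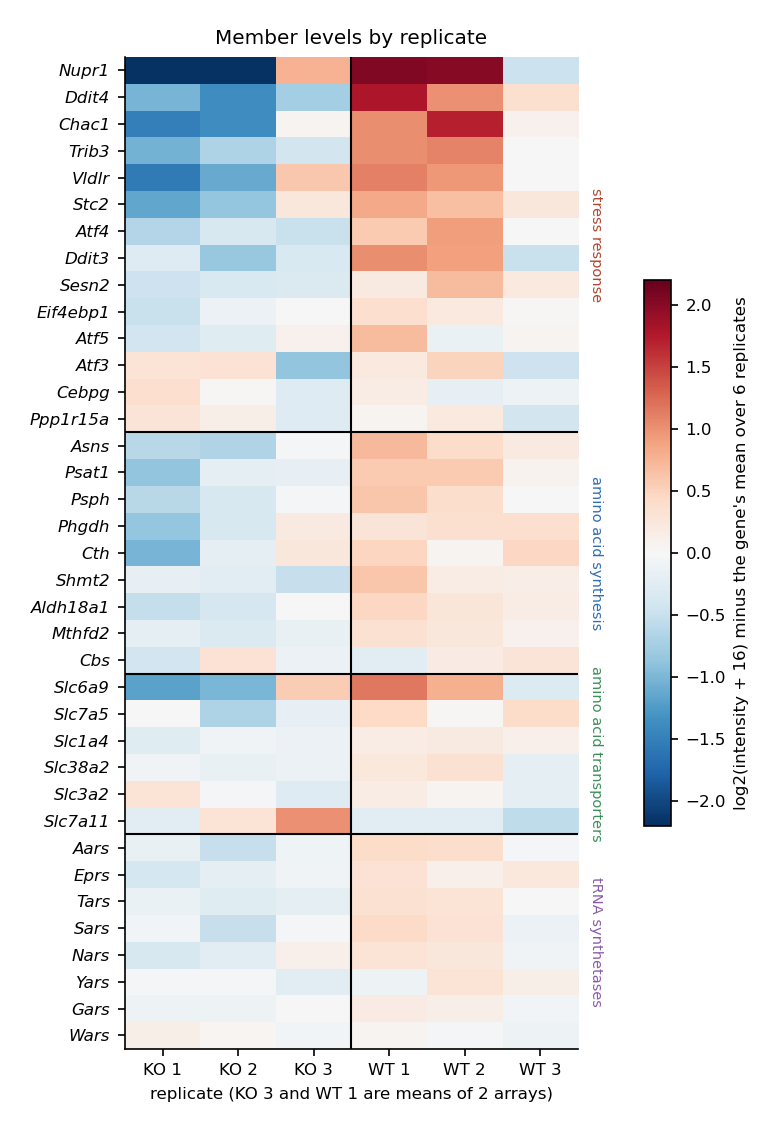
Deviation of each replicate from the gene's mean over the 6 replicates, on the log2(intensity + 16) scale, for the 37 tested members in the 4 groups, with KO replicates left of the line and WT replicates right of it. KO 1 and KO 2 are mostly blue and WT 1 and WT 2 mostly red, while KO 3 and WT 3 are pale, with averages over the members of -0.06 in KO 3 and 0.00 in WT 3.

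The promoter core was set beside the differences. Of 12 tested members with a match, 11 were lower in KO cells, 6 had no overlap (50%, against 10.9% of all genes) and the median was -0.46. Of 20 tested members with a window and no match, 18 were lower, 11 had no overlap (55.0%, against the same 10.9%) and the median was -0.60. The 11 include Psph, which passed the filter through the WT arrays and overlapped on single arrays. Psph was not left out of this comparison. The members with a match held both ends of the range, Nupr1 at -2.39 and Slc7a11 at 0.70, whose promoters are shown above. Ddit4, at -2.10, had no match in its window, which says only that these letters are not in it.

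**Figure D4:**
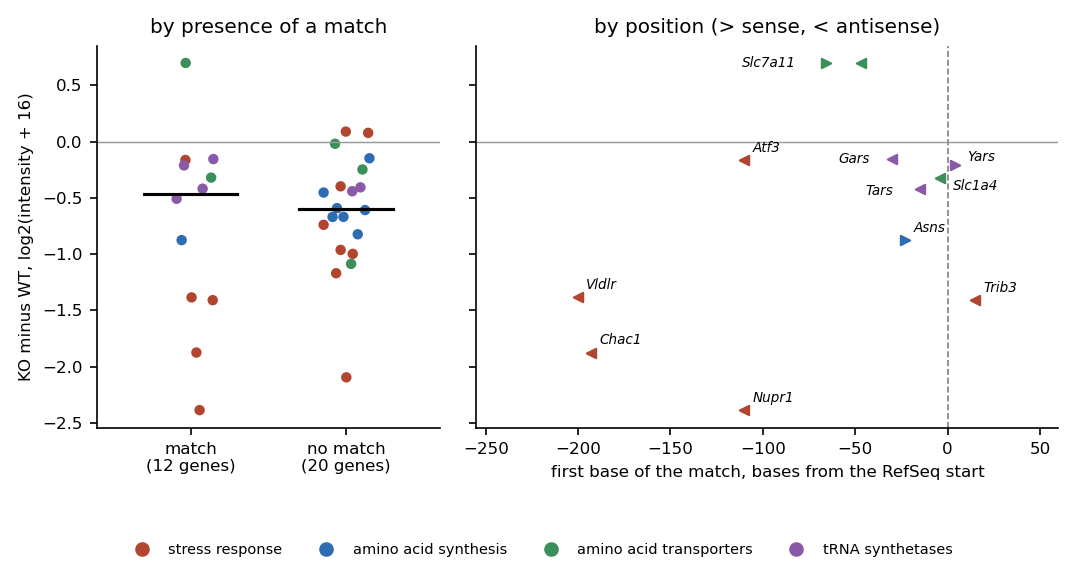
Left, the KO minus WT difference of the 32 tested members with a promoter window, by whether the window held the core (12 with, 20 without), with a bar at the median. Right, the same difference for 11 of the members with a match against the position of its first base relative to the RefSeq start, where Chac1 and Vldlr lie farthest upstream and Trib3 lies after the start.

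Genes around the response were read from other lists, also chosen with earlier results of these data known. Of 12 tested genes of the eIF2 kinases and the eIF2 machinery, 7 were lower, 1 had no overlap (8.33%, against 10.9% of all genes), 0 were called and the median was -0.03. This median depended on 1 replicate and was -0.30 without KO 3. Eif2ak3 (PERK) read 113, 101 and 177 in KO cells, against 208, 205 and 134 in WT cells (-0.45 ± 0.25, adjusted p = 0.412, limma), Eif2ak1 was at 0.19 ± 0.18 and Eif2ak2 at -0.03 ± 0.27. The single probe of Eif2ak4 (GCN2) was above the limit on 0 of 8 arrays, so its level has only a bound here. The genes of this list furthest from 0 were Eif2s2, which encodes the beta subunit of eIF2, at -0.81 ± 0.29, and Nck1, an adaptor gene, at -0.76 ± 0.22, with every KO replicate of Nck1 below every WT replicate.

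Other genes reported as ATF4 targets also lay mostly lower in KO cells. Of 15 tested, 14 were lower, 6 had no overlap (40.0%, against 10.9% of all genes), 0 were called and the median was -0.59, or -0.91 without WT 3. Adm2 and Fgf21 were not above the limit on every array and passed the filter through the WT arrays, where they were high. Without them 12 of 13 genes were lower and 5 had no overlap (38.5%, against 11.5% of all genes so filtered), with a median of -0.74. Aldh1l2, a mitochondrial folate enzyme, read 55.4, 89.4 and 406 in KO cells, against 814, 517 and 359 in WT cells (-1.90 ± 0.64, adjusted p = 0.194, limma). Herpud1, which encodes a membrane protein of endoplasmic reticulum degradation, read 1137, 1122 and 1768 in KO cells, against 3168, 3963 and 2139 in WT cells (-1.18 ± 0.28, adjusted p = 0.106, limma). Aldh1l2 again had its KO and WT replicates 3 crossed, and Herpud1 did not.

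Families related to the members by enzyme or carrier type, but not on the list, had medians near 0. The 13 other cytosolic tRNA synthetases and scaffold genes had a median of -0.08, with Farsa at 0.54 ± 0.17 and Lars at -0.43 ± 0.21. Of these 9 were lower (69.2%, against 47.5% of all genes). In 2 every KO replicate lay below every WT replicate (15.4%, against 10.9%), and in 1 every KO replicate lay above (7.69%, against 11.6%). The 12 mitochondrial synthetases had a median of 0.15, with 10 higher and 2 lower (16.7%, against 47.5%). Lars2 at 0.35 ± 0.70 and Iars2 at 0.34 ± 0.22 were the furthest from 0 among the mitochondrial ones, and 0 genes of either list were called. The 13 other amino acid transporters had a median of 0.05 (-0.03 without KO 2) with 0 called, and included Slc1a1 at 1.93 ± 0.75 and Slc7a3, a cationic amino acid carrier, at -1.77 ± 0.55. Among 12 other serine, glycine and folate enzymes the median was 0.04. In KO cells 4 were lower, 2 of them with no overlap (16.7%, against 10.9% of all genes). The 1 gene called, against 0.708% of all genes, was Aldh4a1, which breaks down proline rather than making it. It read 691, 543 and 659 in KO cells, against 1711, 1625 and 1233 in WT cells, a difference of -1.24 ± 0.18 (adjusted p = 0.0434, limma). The call was lost without KO 1, KO 2, WT 1 or WT 2 (adjusted p = 0.101 to 0.191, limma), under ribosomal centring (adjusted p = 0.0514) and with Eif2s3y as a term (adjusted p = 0.0722).

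Among 19 genes of mTORC1 and its regulators the median was -0.11. In KO cells 12 were lower, 2 of them with no overlap (10.5%, against 10.9% of all genes). The 1 gene called, against 0.708% of all genes, was Sesn1, a relative of Sesn2 best known as a p53 target. It read 42.2, 30.6 and 48.3 in KO cells, against 139, 110 and 108 in WT cells, a difference of -1.26 ± 0.18 (adjusted p = 0.0390, limma). The call was lost without both 1.1 arrays (adjusted p = 0.0505, limma), with Eif2s3y as a term (adjusted p = 0.0722) and without any single replicate other than KO 3 (adjusted p = 0.0661 to 0.167, limma). The ATF6 and XBP1 arm of the unfolded protein response, which acts beside ATF4 in the endoplasmic reticulum, had 16 tested genes with a median of 0.00 and 0 called, 8 lower and 8 higher. In 3 of these genes every KO replicate lay above every WT replicate (18.8%, against 11.6% of all genes). In 0 did every KO replicate lie below every WT replicate (against 10.9%). Derl2 was at 0.69 ± 0.13 (adjusted p = 0.0725, limma) and Xbp1 at -0.67 ± 0.25 (adjusted p = 0.231, limma). The 11 proliferation genes had a median of -0.05 and 0 called, with Plk1 at -1.15 ± 0.90, where WT 1 alone read 666 against 36.8 to 56.8 in KO cells, and Mcm6 at -0.47 ± 0.16.

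**Figure D5:**
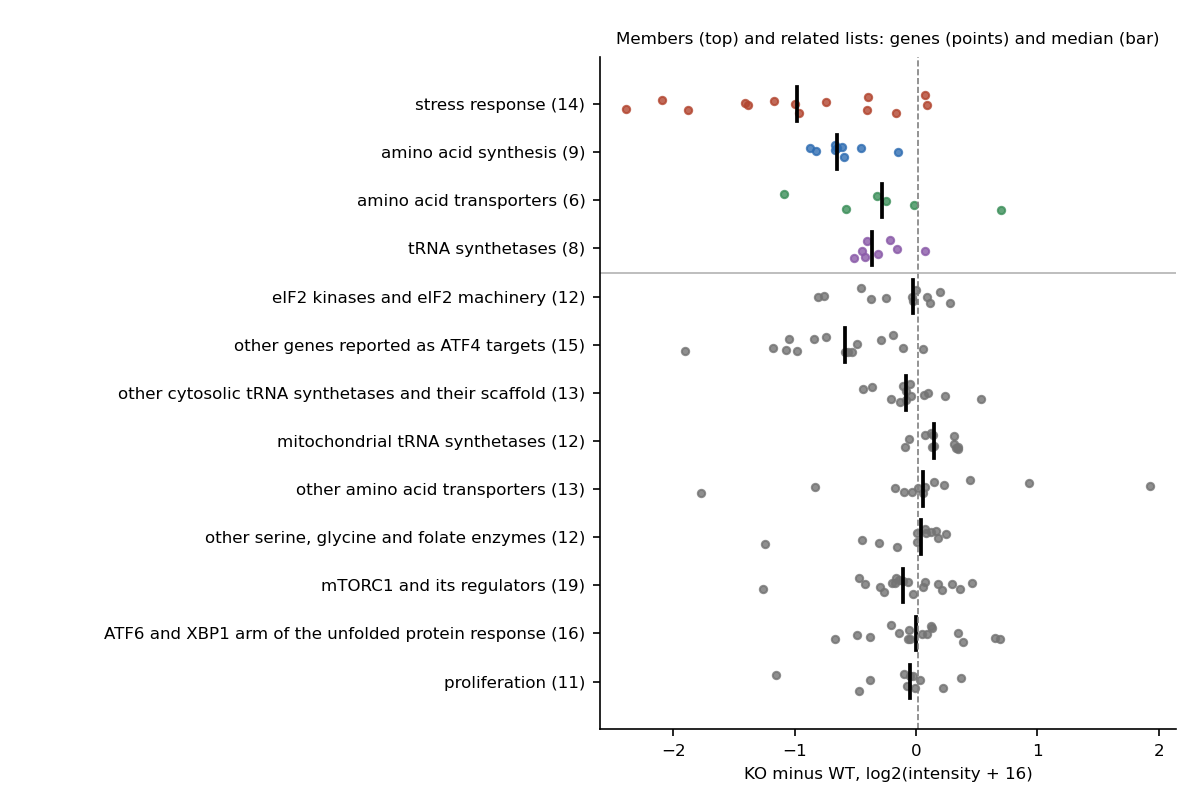
Difference between KO and WT cells of every tested gene (points) and the list median (bar) on the log2(intensity + 16) scale for the 4 member groups and 9 related lists, with the number of tested genes in brackets and a dashed line at the median of all genes (0.02). The member groups have medians of -0.98 to -0.28 and the other ATF4 targets -0.59, while the 8 remaining lists lie between -0.11 and 0.15.

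Markers of the cell types the cultures could hold were summed as intensities. Keratinocyte markers were above the limit on all arrays in 9 of 9 genes with a probe, with sums of 24891 to 30515 in KO cells and 29387 to 32611 in WT cells. Of these genes 8 of 9 were lower in KO cells and 3 had no overlap (33.3%, against 10.9% of all genes), with a median of -0.27. Trp63, the master factor of stratified epithelium, was at -0.67 ± 0.20 (adjusted p = 0.146, limma), and Dsg3, a desmosomal cadherin gene, at -0.45 ± 0.16 (adjusted p = 0.204, limma). These were the 2 lowest. Itga6, the 1 higher marker, was at 0.48 ± 0.28 (adjusted p = 0.430, limma), and Krt5, the closest to 0, at -0.06 ± 0.18. Melanocyte markers, 6 of 7 with a probe, summed to 1614, 1231 and 383 in KO cells, against 3243, 916 and 1463 in WT cells. All 6 were lower on average in KO cells, against 47.5% of all genes. Tyr and Mitf were not above the limit on every array and passed the filter through the WT arrays, where they were high. Without them 4 of 4 genes were lower, against 3720 of 7751 genes so filtered, and 0 had no overlap (against 11.5%). Fibroblast markers summed to 222 to 464 in KO cells and 44.3 to 1031 in WT cells, with the highest sum in WT 3 and with Col1a2 and Postn above the limit on no array. Muscle markers summed to 1807, 1448 and 2787 in KO cells, against 1605, 697 and 3766 in WT cells, highest in replicate 3 of each genotype. Nearly all of this was Acta2, at 1446 to 2772 in KO cells and 695 to 3752 in WT cells, with Des and Myh11 on no array. Endothelial markers summed to at most 22.7 in KO cells and 14.1 in WT cells with Cdh5 and Tie1 on no array, and immune markers to at most 8.12 in KO cells and 9.40 in WT cells with Ptprc, Cd207 and Lyz2 on no array. S100b, the single Schwann cell marker with a probe, was above it on no array. The part of any of these in the member differences was not tested.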

How the data were processed

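Per the labels' protocols, biotin-labelled cRNA was made from the total RNA of KO and WT keratinocytes for Illumina arrays. The deposited table holds 1 intensity per probe for 25697 probes on 8 arrays. The authors' steps behind the intensity values are not stated in the labels or file headers. Background had been subtracted, since 27.1% to 27.3% of them per array were negative, and all arrays share the same 75th percentile (98.8) and highest value (20141), as quantile normalization leaves them. No normalization was added. A further table with 16 columns whose names matched no label was not used here.

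Of the probes, 23978 had 1 gene symbol in the platform annotation, 0 had several and 1719 had none. A probe was kept if it exceeded an intensity of 6.30 on at least 3 arrays, a limit that left 5% of the mirrored negative values above it. The brightest kept probe of a gene was tested. Values were compared as log2(intensity + 16) with limma's lmFit and eBayes (limma 3.58.1, R 4.3.3), 3 KO against 3 WT replicates without a block, with Benjamini-Hochberg adjustment over 9881 genes. All adjusted p-values are from limma. On simulated data with 200 changed genes the fit called 32.0% of those changed by 1 and 95.0% of those changed by 2 on the log2 scale, and 6.62% of its calls were false. The number of arrays limits the precision. Promoter sequences and coordinates are from RefSeq windows on GRCm38.p6; the array files name no build. The promoter sequence and match positions of 1 member are not reported here. Alternatives covered the pairing of arrays, a replicate block, the offset, probe filters and choice, the variance prior, array weights, centring, the threshold, each replicate left out and, added after the data were seen, detection of the Y-linked gene Eif2s3y as a term. Figures were drawn with matplotlib 3.10.9.

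The 42 members, the related lists and the pairing of arrays were chosen with earlier results of these data known. Values in every replicate were given for Atf4 and for each member with an unadjusted p under 0.05 and no overlap. From each related list the called genes were named, or, where 0 were called, the 2 furthest from 0, together with the eIF2 kinases. Nupr1, Vldlr, Ddit3, Eif4ebp1, Slc3a2, Slc7a11, Slc6a9 and Eif2ak3 were given by replicate, and the markers Trp63, Dsg3, Itga6, Krt5 and Acta2 were named, after their values were seen.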

Additional observations from a re-analysis of the deposited data

How the results depend on the processing

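The median difference over the members stayed between -0.67 and -0.40 under all alternatives with a value, and 29 of the 33 lower members were lower under every one. The number of genes called moved far more: 261 (123 higher) with arrays averaged as labelled, 940 (456 higher) with array weights, 40 (15 higher) with detection of Eif2s3y as a term (chosen after the data were seen), 299 (140 higher) at an adjusted p under 0.1, and 5 to 264 (0 to 100 higher) with 1 replicate left out. The members called lower are given with the share of all genes called in either direction. They were 1 of 37 as labelled (2.64%) and 1 of 35 with probes bright on all 8 arrays (0.979%), Ddit4 in both. There were 15 of 37 with array weights (9.51%) and 2 of 37 at an adjusted p under 0.1 (3.03%). With 1 replicate left out there were 0 to 5 (0.0506% to 2.67%). Members without overlap numbered 14 under ribosomal centring (9.34% of all genes) and 19 to 27 with 1 replicate left out (13.3% to 18.9% of all genes). Centring on ribosomal protein genes raised the share of calls that were higher in KO cells to 51.7%, against 41.4%. The replicate numbers did not pair the samples (correlations of deviations 0.06, 0.02 and -0.35), and a replicate block gave 21 called genes, 9 higher, and 0 members, and Aldh4a1 and Sesn1 had limma adjusted p of 0.123 and 0.118 in it.

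Some genes changed sign under an alternative. Cebpg was at -0.0049 and Eif2ak2 at 0.14 with arrays averaged as labelled, Slc38a2 at 0.0088 and Wars at -0.0083 with the mean of probes, Atf3 at 0.0047 and Cbs at 0.14 with array weights, and Slc3a2 at 0.00092 with ribosomal centring and 0.042 with Eif2s3y as a term. With 1 replicate left out the ranges were -0.092 to 0.25 for Ppp1r15a, -0.091 to 0.24 for Cebpg, -0.35 to 0.028 for Cbs, -0.43 to 0.23 for Atf3, -0.17 to 0.12 for Slc3a2, -0.28 to 0.24 for Eif2ak2, -0.12 to 1.03 for Lars2 and -1.90 to 0.039 for Plk1. The causes were not tested. Probes near the background limit, such as those of Psph and Cbs, carry the least information.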
